A study of Mus musculus with 18 samples.

Results

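The nuclear RNA of a pair of mouse embryonic stem cell control lines was compared before any drug was given: the control of a Mettl3 experiment, called the Mettl3 control, and the control of a Ythdc1 experiment at 0 h, called the Ythdc1 control. The comparison was made over the genes of chromosomes 1 to 19. Of 54446 genes counted in the series, 50188 lie on these autosomes, and 18978 of them had enough reads to be tested in the 4 control libraries (2 per line) of the 18 libraries in the series. The members were taken by chromosome and by library label, not by a cut on any measured value. They and the gene lists below were chosen with earlier results of these data known. Embryonic stem cells are grown from the inner cell mass of the blastocyst and can form every tissue of the body. Each line is the reference to which a series of knockouts was compared, so the values below describe how far these starting points lay apart.

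Per the labels, all cells were C57BL/6 embryonic stem cells grown in 15% serum with LIF, the GSK3 inhibitor CHIR99021 and the MEK inhibitor PD0325901, and RNA was purified from the nuclear fraction. The Mettl3 control carries the genotype label Mettl3_Control and the Ythdc1 control the label Ythdc1_Control. Both were taken at 0 h of actinomycin D, an inhibitor of transcription. Libraries of knockouts at 0 h are set beside them: the Mettl3 knockouts KO1 and KO2, and the Ythdc1 cKO (conditional knockout), with 2 libraries each. METTL3 is the catalytic subunit of the enzyme that writes N6-methyladenosine (m6A) on RNA, and YTHDC1 is the nuclear protein that reads it. The labels do not say how either control was derived, whether it is a single clone, or whether the 2 libraries of a line came from separate cultures. The spread behind the p-values is therefore that between libraries, and may be purely technical. Each line was measured in its own experiment, so line and experiment cannot be told apart in any difference given here.

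Mouse embryonic stem cells kept with LIF and both inhibitors sit near a naive state that resembles the early epiblast. In this state LIF acts through STAT3, GSK3 inhibition lets beta-catenin act on WNT target genes, and MEK inhibition restrains the FGF-ERK genes that lead towards the formative and primed states. A small share of such cells passes at any time through a 2-cell-like state, with genes of the cleavage-stage embryo switched on. Imprinted genes, which are read from the chromosome of 1 parent, and the copy number of whole chromosomes are known to drift between stem cell lines in culture.

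The Mettl3 control libraries held 20444256 and 22879403 gene reads and the Ythdc1 control libraries 8840925 and 12524328. Levels are CPM, read counts scaled to a common library size with TMM factors, which centre the typical gene. Log2 fold changes are Mettl3 control over Ythdc1 control with their standard error (SE), n = 2 libraries per line. A gene was called when its p from the edgeR quasi-likelihood test, adjusted by the Benjamini-Hochberg method over all 19621 genes tested, was below 0.05. An exact permutation test of 2 libraries against 2 cannot give a p below 0.333, so no single gene was tested that way. The libraries of each line differed from each other by more than sampling noise (chi-square per degree of freedom of 3.26 for the Mettl3 control and 3.95 for the Ythdc1 control) and were kept as 2 samples.

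The lines differed over most of the transcriptome. Of 18978 autosomal genes, 13702 (72.2%) were called, 7547 higher (39.8%) and 6155 lower (32.4%) in the Mettl3 control. A called difference of at least 2-fold was found for 7217 genes (38.0%), 4623 of them higher and 2594 lower. The median log2 fold change was 0.11, the 25th and 75th percentiles were −0.55 and 1.006, and the 5th and 95th were −1.96 and 3.53. In 16140 genes (85%) the libraries of the lines did not overlap. Every count of list members below is read against these shares. Scaling to the ERCC spike-in RNA, of which the authors added 0.1 µl to each sample, raised the median of all autosomal genes by 0.55 on the log2 scale and called 11534 higher and 2910 lower, so fold changes below are relative to the typical gene.

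Part of this difference followed the arrangement of genes on the strands. The 11882 tested genes with no exonic base inside an annotated gene of the opposite strand had a median log2 fold change of 0.04. The 1688 genes whose exons lie partly or wholly inside an opposite-strand gene but share no exonic base with it had a median of 1.53, with 1130 called higher and 273 lower, and 520 of them had 0 reads in both Ythdc1 control libraries. At the other end, the 61 genes that share over 90% of their exonic bases with the opposite strand had a median of −4.74, with 12 higher and 48 lower, and 33 of them had 0 reads in both Mettl3 control libraries. Reads set aside as ambiguous between genes made up 6.51% and 6.07% of uniquely placed reads in the Mettl3 control, against 2.91% and 2.67% in the Ythdc1 control. The strand setting of the counting is not given in the sources used here, and its part in these values was not tested. Annotated antisense genes (837, median 2.17) and processed pseudogenes (1133, median 1.35) stood far above protein-coding genes (13887, median 0.03). Without opposite-strand overlap, processed pseudogenes had a median of 0.29 (731 genes, 299 higher and 227 lower). A fit of only the 11882 genes without opposite-strand overlap, chosen after seeing the data, called 4266 higher (35.9%) and 3898 lower (32.8%), and its list counts are given beside the others where they bear on a list.

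**Figure D1:**
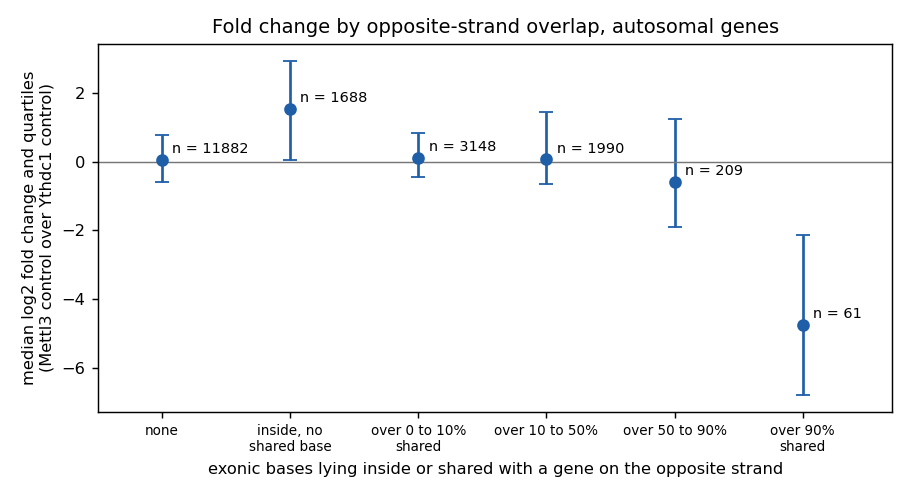
Median log2 fold change (Mettl3 control over Ythdc1 control) of autosomal genes, grouped by how their exons lie relative to a gene on the opposite strand. Points are medians, bars join the quartiles over genes and n is the number of genes. Genes without overlap centre on 0.04, genes inside an opposite gene with no shared base on 1.53, and genes sharing over 90% on −4.74.

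The targeted genes of the experiments differed between their controls. Ythdc1 (chr5:86804221-86836659, plus strand) had 244 and 248 CPM in the Mettl3 control, against 151 and 137 CPM in the Ythdc1 control. The groups did not overlap, and the gene was higher in the Mettl3 control (log2 fold change 0.78 ± 0.061, adjusted p = 5.81e-15). Mettl3 (chr14:52294841-52305128, minus strand) had 36.1 and 31.4 CPM in the Mettl3 control, against 39.8 and 41.4 CPM in the Ythdc1 control, a fold change of −0.27 ± 0.093 (adjusted p = 0.00920). It was not called without the second library of the Mettl3 control (−0.17) or of the Ythdc1 control (−0.24), and was 0.28 under spike-in scaling. In the knockouts Ythdc1 had 196 and 195 CPM in KO1 and 152 and 151 CPM in KO2, against 149 and 124 CPM in the cKO, and Mettl3 had 32.4 and 30.9 CPM in KO1 and 23.2 and 22.5 CPM in KO2, against 44.3 and 53.5 CPM in the cKO. A gene-level count does not check a deletion of part of a gene.

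The summed stem cell markers were far above the summed markers of any other cell type checked, in both lines. The 9 embryonic stem cell markers summed to 2997 and 2935 CPM in the Mettl3 control, against 3292 and 3244 CPM in the Ythdc1 control, and 1 was called higher and 4 lower. The 11 fibroblast markers summed to 216 and 199 CPM, against 11.4 and 13.6 CPM, and 5 of the 7 tested were called higher. Of these 11, 5 were below 1 CPM in all 4 libraries, among them Dcn, Lum, Twist2 and Prrx1. In the Mettl3 control most of the fibroblast sum was Col1a1 (103 and 99.6 CPM) and Col1a2 (88.2 and 75.7 CPM). Trophoblast markers summed to 27.3 and 26.5 CPM against 7.33 and 11.9 CPM, extraembryonic endoderm markers to 14.1 and 15.6 CPM against 8.57 and 7.85 CPM, neural markers to 55.3 and 53.9 CPM against 38.3 and 43.2 CPM, and mesoderm markers to 11.97 and 12.8 CPM against 9.92 and 9.35 CPM. In bulk RNA, fewer cells of a type and less RNA per cell cannot be told apart.

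The 12 highest and 12 lowest genes by fold change were mostly genes caught up in an opposite-strand arrangement. Among the 12 highest, 7 lie by over 50% of their exonic bases inside an opposite-strand gene. B3galt2, a galactosyltransferase gene, had 37.6 and 39.4 CPM in the Mettl3 control, against 0 and 0 CPM in the Ythdc1 control, at least 134-fold higher against a floor of 3 counts per library. Lrrtm2, a synaptic adhesion gene, was at least 122-fold higher, and Rptn and Ogn at least 81.4-fold and 61.9-fold higher. Gper1, Hrnr and Gpr18 complete this group, at least 56.5-fold, 42.2-fold and 40.4-fold higher. None of these 7 had a read in either Ythdc1 control library. Rtl1, an imprinted gene derived from a retrotransposon and opposed by a maternal antisense transcript, had 2154 and 2330 reads in the Mettl3 control, against 1 and 0 in the Ythdc1 control, a ratio of 2136 (95% counting interval between 383 and 84374).

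Among the 12 lowest, 10 share over 50% of their exonic bases with the opposite strand. The histone gene Hist2h2bb had 0 and 0 CPM in the Mettl3 control, against 114 and 119.5 CPM in the Ythdc1 control, at least 873-fold lower. The noncoding snoRNA host gene Snhg3 and the gene Pdcd2 were likewise at 0 in both Mettl3 control libraries, at least 642-fold and 224-fold lower. Med10, a subunit gene of the Mediator complex, had 0 and 1 reads in the Mettl3 control, against 349 and 501 in the Ythdc1 control, and the histone gene Hist2h3b had 2 and 0 reads in the Mettl3 control, against 215 and 276 in the Ythdc1 control. The ratios of Ythdc1 control over Mettl3 control were 1785 (95% counting interval between 319 and 70571) for Med10 and 515 (95% counting interval between 142 and 4268) for Hist2h3b. Pus3, Slirp, Rangrf, Sp6 and Ilk had log2 fold changes between −6.85 and −5.85, on between 0 and 10 reads in each Mettl3 control library. Leaving out the first Mettl3 control library gave −6.82 for Rangrf, and leaving out the second gave −5.79 for Pus3. The same split ran through the knockouts, with Hist2h2bb at 0 and 0 CPM in KO1 and 0 and 0 CPM in KO2, against 96.3 and 86.4 CPM in the cKO.

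Genes with no opposite-strand overlap in the GENCODE M21 annotation also differed by large factors. Transcripts missing from that annotation are not seen by this sorting, and the part of the strand setting in these counts was not tested. The rule for the highest and lowest genes was applied to them after seeing the data. Eno1b, annotated at chr18:48045335-48048412, plus strand as a near-copy of the enolase gene Eno1, had 56.4 and 54.8 CPM in the Mettl3 control, against 0 and 0 CPM in the Ythdc1 control, at least 193-fold higher. Reads of such a copy are uncertain, because near-identical genes can split them. The olfactory receptor gene Olfr986, the filaggrin gene Flg and the vomeronasal receptor gene Vmn1r47 were also at 0 in the Ythdc1 control, at least 66.2-fold, 48.9-fold and 47.4-fold higher. Slc10a1, Muc6, Zfp467, Gp1ba and Gtsf2 were at 0 there too, with bounds between 15.4-fold and 33.6-fold. Gpr1, the prostaglandin D synthase gene Hpgds and the matrix gene Ccdc80 had 1 or 2 reads in total there, and count ratios of 685 (95% counting interval between 123 and 27090), 289 (95% counting interval between 51.7 and 11438) and 258 (95% counting interval between 71.4 and 2136). In both Mettl3 knockouts the levels of these 12 genes were above those in the cKO.

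On the low side, Obox6, a homeobox gene of the oocyte and early embryo (chr7:15833241-15839678, minus strand), had 0.141 and 0.126 CPM in the Mettl3 control, against 40.03 and 34.01 CPM in the Ythdc1 control. This was the lowest fold change of this group (−8.04 ± 0.27, adjusted p = 2.07e-28), and the groups were far apart. In the knockouts it had 0.324 and 0.473 CPM in KO1 and 1.299 and 0.868 CPM in KO2, against 18.5 and 19.02 CPM in the cKO. The serpin gene Serpina3m followed (−6.56 ± 0.35), then the aldehyde oxidase gene Aox3 (−4.71 ± 0.21), the bicarbonate transporter gene Slc4a10 (−4.53 ± 0.15) and Bglap3 (−4.52 ± 0.18). Germline genes stood among them, Brdt (−4.48 ± 0.21), a testis bromodomain gene, and Rbm44 (−4.29 ± 0.22), as did Osm (−4.05 ± 0.32), which encodes the cytokine oncostatin M. The protease gene Mep1b had 9.704 and 10.3 CPM in the Mettl3 control, against 168 and 176 CPM in the Ythdc1 control (−4.102 ± 0.080). Slc43a3, Ptchd3 and the 2-cell-like gene Nat8f2 complete the 12, between −3.94 and −3.89.

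Among genes of naive pluripotency, Pou5f1 and Esrrb were not called different, while several others differed by large factors. Among the list members named from here on, Rex2, Slc7a5, Sox4, Magel2, Ndn and Notum have over 50% of their exonic bases inside an opposite-strand gene, and Arg2, Pou5f1, Gbx2, Cdkn1c, Ncam1, Airn, Mest, Pck2, Lox, Col4a1, Tdh, Ccnd1, Pim1, Pcdhgc3 and Jun have between 20 and 50%, and the part of the strand setting in their counts was not tested. Of 31 naive genes tested, 9 were higher (29%) and 13 lower (41.9%), at a median of −0.0084. Spike-in scaling gave 20 higher and 8 lower, at a median of 0.54. Pou5f1, which encodes OCT4, had 248 and 237 CPM in the Mettl3 control, against 235 and 246 CPM in the Ythdc1 control (0.0094 ± 0.053). The nuclear receptor gene Esrrb had 489.8 and 501 CPM in the Mettl3 control, against 484 and 497 CPM in the Ythdc1 control (0.015 ± 0.051). Neither was called (adjusted p = 0.882 and 0.795), and their libraries overlapped. Zfp42 (chr8:43295063-43306980, minus strand), the classic stem cell marker also called Rex1, had 429 and 433 CPM in the Mettl3 control, against 61.2 and 57.9 CPM in the Ythdc1 control. The lines did not overlap, and it was the highest of the 31 by fold change (2.86 ± 0.060, adjusted p = 8.9e-36), 7.26-fold. It lies on chromosome 8, whose median gene was itself higher, by much less, as given with the chromosome medians. Several genes named below lie on chromosome 8 as well, among them Klf2, Tex15, Ier2, Slc7a5, Col4a1, Col4a2 and Sox1. Tmem92, Axin2, Mettl16 and Polr2a are among those on chromosome 11, whose median gene was lower.

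L1td1, an RNA-binding gene derived from a LINE-1 element, had 611 and 609 CPM in the Mettl3 control, against 195 and 186 CPM in the Ythdc1 control (1.68 ± 0.052). Klf4, a LIF-responsive reprogramming factor, had 224 and 240.2 CPM in the Mettl3 control, against 78.6 and 86.9 CPM in the Ythdc1 control (1.48 ± 0.061). Both were higher in every Mettl3 control library. The zinc finger gene Rex2 was higher too (1.69 ± 0.093) but lies inside an opposite-strand gene. Smaller differences in the same direction were called for Lin28a (0.90 ± 0.078), Mybl2 (0.82 ± 0.048), Fgf4 (0.61 ± 0.051) and Klf2 (0.31 ± 0.060).

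The lower naive genes included Nanog, the factor that holds cells in self-renewal, with 394 and 385 CPM in the Mettl3 control, against 624 and 616 CPM in the Ythdc1 control (−0.67 ± 0.049). Tfcp2l1, a LIF-STAT3 effector, had 519 and 513 CPM in the Mettl3 control, against 1007 and 1000.3 CPM in the Ythdc1 control (−0.96 ± 0.046). Gbx2, a homeobox gene downstream of LIF, had 1.93 and 2.85 CPM in the Mettl3 control, against 15.6 and 14.6 CPM in the Ythdc1 control, the widest gap on the low side (−2.64 ± 0.18). Dppa2 (−1.18 ± 0.065), Tdh (−1.12 ± 0.058), Fbxo15 (−0.97 ± 0.053), Sall4 (−0.74 ± 0.050), Trim28 (−0.71 ± 0.051), Dppa3 (−0.65 ± 0.15) and Zfp281 (−0.65 ± 0.062) were lower as well. Sox2 had 97.8 and 90.3 CPM in the Mettl3 control, against 131 and 122 CPM in the Ythdc1 control (−0.43 ± 0.063), a small difference that spike-in scaling turned positive. Dppa5a (0.0042) and Utf1 (0.071) were not called.

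**Figure D2:**
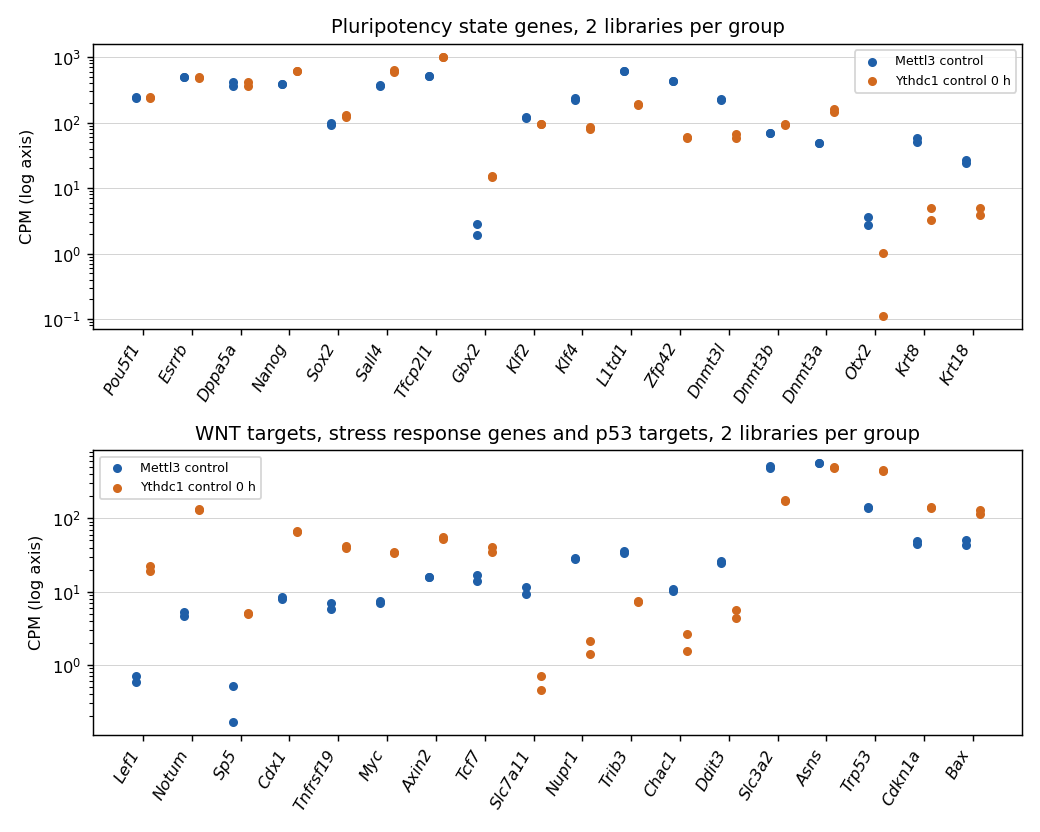
Levels of pluripotency state genes (top) and of WNT targets, stress response genes and p53 targets (bottom) in single libraries, in CPM on a log axis, with the 2 Mettl3 control libraries left of the 2 Ythdc1 control libraries for each gene. Pou5f1, Esrrb and Dppa5a overlap between the lines, while Zfp42 is near 430 against 60 CPM and Lef1 near 0.6 against 20 CPM.

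Formative and primed genes differed in both directions. Of 21 tested, 8 were higher and 9 lower (38.1% and 42.9%; median 0.0038). Spike-in scaling gave 14 higher and 3 lower, at a median of 0.55. Among the 9 without opposite-strand overlap, 4 were higher and 2 lower, at a median of 0.18. The keratin gene Krt8 had 58.1 and 50.3 CPM in the Mettl3 control, against 4.96 and 3.25 CPM in the Ythdc1 control (3.77 ± 0.14), and its partner Krt18 had 23.8 and 26.7 CPM in the Mettl3 control, against 3.95 and 4.92 CPM in the Ythdc1 control (2.49 ± 0.16). Otx2, a factor of the post-implantation epiblast, had 78 and 66 reads in the Mettl3 control, against 1 and 13 in the Ythdc1 control (2.31 ± 0.43, and 1.63 without the first Ythdc1 control library). Fst, which encodes the activin antagonist follistatin, was also higher (2.67 ± 0.14). Foxd3 (0.59 ± 0.10) and the ERK-responsive factor gene Etv4 (1.73 ± 0.13) were also higher. The methyltransferase genes split: Dnmt3l, the cofactor without catalytic activity, had 223 and 227 CPM in the Mettl3 control, against 58.9 and 66.99 CPM in the Ythdc1 control (1.83 ± 0.063), while Dnmt3a had 49.2 and 48.8 CPM in the Mettl3 control, against 144 and 159.8 CPM in the Ythdc1 control (−1.64 ± 0.067). Lef1, a WNT effector described below, was the lowest of this list, and Grhl2 (−1.15 ± 0.17) and Sox4 (−0.75 ± 0.13) were lower too. Dnmt3b had 70.5 and 68.6 CPM in the Mettl3 control, against 96.8 and 92.8 CPM in the Ythdc1 control (−0.45 ± 0.061), a small difference that spike-in scaling turned positive.

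Genes of the 2-cell-like state were lower in the Mettl3 control almost throughout. Of 29 tested, 25 were lower (86.2%) and 2 higher, for a list median of −1.34. Without opposite-strand overlap, 23 of 27 were lower and 2 higher. Tcstv3, a gene of unsettled function that marks the 2-cell embryo, had 0.424 and 0.754 CPM in the Mettl3 control, against 3.95 and 4.202 CPM in the Ythdc1 control (−2.76 ± 0.38), and Zfp352, a zinc finger gene of the same stage, had 0.801 and 0.838 CPM in the Mettl3 control, against 3.61 and 3.81 CPM in the Ythdc1 control (−2.17 ± 0.34). Of the Zscan4 genes, which protect telomeres in this state, Zscan4d had 6.88 and 8.502 CPM in the Mettl3 control, against 19.8 and 18.8 CPM in the Ythdc1 control (−1.32 ± 0.14), Zscan4a and Zscan4f had log2 fold changes of −1.62 ± 0.13 and −1.34 ± 0.24, and Zscan4c was not called (−0.16). The acetyltransferase-family gene Nat8f2 had 1.65 and 2.18 CPM in the Mettl3 control, against 28.4 and 28.9 CPM in the Ythdc1 control, and the membrane protein gene Tmem92 had 7.91 and 7.83 CPM in the Mettl3 control, against 34.5 and 41.9 CPM in the Ythdc1 control (−2.29 ± 0.12). Arg2, an arginase gene, was lower too (−3.23 ± 0.23). The translation factor gene Eif1a (−1.43 ± 0.056) and Zfp809 (−1.02 ± 0.069), a repressor of retroviruses, were lower with the smallest errors of the list. Gm2022 was higher (2.46 ± 0.64) but not called without the second Ythdc1 control library (1.54). Gm4340 was higher too, with 17 and 16 reads in the Mettl3 control, against 0 and 1 in the Ythdc1 control and a count ratio of 15.7 (95% counting interval between 2.63 and 639). Tdpoz3 was not called (−0.89). Members of the Zscan4, Usp17l and Tcstv families are near-identical, so their counts rest on unique stretches and are uncertain gene by gene.

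Germline and meiosis genes, many of which are silenced by DNA methylation in somatic cells, were also lower. Of 35 tested, 23 were lower (65.7%) and 6 higher, and the list median was −0.92. Without opposite-strand overlap the counts were 22 lower and 6 higher of 31. Brdt had 1.22 and 1.09 CPM in the Mettl3 control, against 28.3 and 23.6 CPM in the Ythdc1 control. Dazl, an RNA-binding gene of germ cells, had 25.1 and 22.2 CPM in the Mettl3 control, against 143 and 148 CPM in the Ythdc1 control (−2.62 ± 0.078), and Tex15, a germ cell factor of transposon silencing, had 43.2 and 44.3 CPM in the Mettl3 control, against 144 and 145 CPM in the Ythdc1 control (−1.72 ± 0.066). Zfp42, which is also on this list, went the other way.

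Targets of the WNT pathway were mostly lower. The labels give the same GSK3 inhibitor in the medium of both lines. Of 21 tested, 15 were lower (71.4%) and 1 higher, at a median of −1.33. Among the 14 without opposite-strand overlap, 9 were lower and the others were not called. Of the 21 members, 6 lie on chromosome 11, whose median gene was lower too, and the median was −2.01 over the members outside chromosomes 8 and 11. Lef1 (chr3:131110471-131224356, plus strand), which encodes the DNA-binding partner of beta-catenin, had 0.707 and 0.586 CPM in the Mettl3 control, against 19.3 and 22.8 CPM in the Ythdc1 control. The lines did not overlap (−5.03 ± 0.21, adjusted p = 1.07e-24). Notum, a secreted WNT inhibitor gene on chromosome 11, had 5.37 and 4.73 CPM in the Mettl3 control, against 129 and 133 CPM in the Ythdc1 control (−4.698 ± 0.096), though 80.4% of its exonic bases lie inside an opposite-strand gene. Cdx1, a homeobox gene of the posterior body axis, had 8.48 and 7.87 CPM in the Mettl3 control, against 65.97 and 67.4 CPM in the Ythdc1 control (−3.03 ± 0.097), and the receptor gene Tnfrsf19 had 6.97 and 5.86 CPM in the Mettl3 control, against 40.03 and 41.8 CPM in the Ythdc1 control (−2.68 ± 0.13). The feedback inhibitor gene Axin2 had 16.1 and 15.9 CPM in the Mettl3 control, against 52.5 and 55.9 CPM in the Ythdc1 control (−1.76 ± 0.087), and Myc, a growth regulator, had 6.92 and 7.54 CPM in the Mettl3 control, against 34.2 and 34.3 CPM in the Ythdc1 control (−2.24 ± 0.12).

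T, the primitive streak factor brachyury, and Sp5, a direct WNT target that encodes a zinc finger repressor, were chosen here after their values were seen. T had 0.141 and 0.0838 CPM in the Mettl3 control, against 2.82 and 2.14 CPM in the Ythdc1 control (−4.38 ± 0.55), a low level in both lines. Sp5 had 0.518 and 0.168 CPM in the Mettl3 control, against 5.19 and 4.92 CPM in the Ythdc1 control (−3.89 ± 0.36; −4.85 without the first Mettl3 control library and −3.26 without the second). The exception among the targets was Bmp4, a signalling ligand gene, with 12.8 and 14.2 CPM in the Mettl3 control, against 1.35 and 2.06 CPM in the Ythdc1 control (2.93 ± 0.21). RefSeq promoters were searched for only 15 of the 22 autosomal members, with a single start per gene. Cdx1, Notum and Myc were not among these 15, so nothing is said of their promoters. Sp5 was the single member of the 15 whose promoter holds the core letters of a TCF/LEF site (CTTTGAT, or ATCAAAG on the other strand). No other motif was searched in these promoters. The match is 6.67% of the 15, beside 1006 of the 27025 promoters of the same length that were searched (3.72%). The promoter, shown because it belongs to the steepest WNT target with a match, covers 250 bases before and 50 after the annotated start in GRCm38.p6 (chr2:70474673-70474972, plus strand), with the match in capitals.
Sp5: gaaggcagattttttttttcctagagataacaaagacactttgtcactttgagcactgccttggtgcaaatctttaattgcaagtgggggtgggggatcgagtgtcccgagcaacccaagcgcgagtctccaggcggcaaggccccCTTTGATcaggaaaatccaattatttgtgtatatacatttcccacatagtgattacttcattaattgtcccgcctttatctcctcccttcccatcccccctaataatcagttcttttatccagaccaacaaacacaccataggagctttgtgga

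FGF-ERK targets stood higher on balance. Of 20 tested, 11 were higher (55%) and 5 lower, for a list median of 0.80. Outside chromosomes 8 and 11, 8 of 16 were higher and 5 lower, at a median of 0.68. Ier2, an immediate early gene, had 78.4 and 70.2 CPM in the Mettl3 control, against 34.6 and 33.9 CPM in the Ythdc1 control (1.12 ± 0.079). Against this, the cell cycle gene Ccnd1 had 15.1 and 12.4 CPM in the Mettl3 control, against 43.4 and 50.3 CPM in the Ythdc1 control (−1.78 ± 0.11), and Spry2, a feedback inhibitor of the pathway, had 69.7 and 64.5 CPM in the Mettl3 control, against 131 and 137 CPM in the Ythdc1 control (−0.997 ± 0.064). Of 20 LIF-STAT3 targets, 11 were higher (55%) and 5 lower, and the list median was 0.51. The receptor gene Lifr had 184 and 184 CPM in the Mettl3 control, against 76.1 and 67.1 CPM in the Ythdc1 control (1.37 ± 0.061), while the kinase gene Pim1 had 35.2 and 32.5 CPM in the Mettl3 control, against 117 and 109 CPM in the Ythdc1 control (−1.74 ± 0.071). Immediate early genes, switched on within minutes of a stimulus, were higher in 16 of 24 (66.7%) and lower in 5, at a median of 0.94. Jun had 24.9 and 27.9 CPM in the Mettl3 control, against 7.33 and 7.45 CPM in the Ythdc1 control (1.84 ± 0.13), and the zinc finger gene Klf6 had 56.9 and 57.97 CPM in the Mettl3 control, against 18.04 and 18.5 CPM in the Ythdc1 control (1.65 ± 0.094).

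Genes of the integrated stress response were higher in the Mettl3 control. In this response, phosphorylation of the initiation factor eIF2 lets the factor ATF4 be made, and ATF4 drives amino acid transport and synthesis genes. Of 25 tested, 19 were higher (76%) and 3 lower, for a list median of 1.06. Of the 16 without opposite-strand overlap, 12 were higher and 3 lower. Slc3a2, the heavy subunit gene of an amino acid exchanger, had 515 and 485 CPM in the Mettl3 control, against 174 and 179 CPM in the Ythdc1 control (1.503 ± 0.053). Its light subunit gene Slc7a5 had 282 and 285 CPM in the Mettl3 control, against 109.6 and 116 CPM in the Ythdc1 control (1.33 ± 0.055). Nupr1, a stress-induced chromatin protein gene, had 27.7 and 29.1 CPM in the Mettl3 control, against 2.14 and 1.43 CPM in the Ythdc1 control (4.03 ± 0.19, adjusted p = 1.44e-22). Pck2, a mitochondrial enzyme of gluconeogenesis, had 45.9 and 41.6 CPM in the Mettl3 control, against 11.6 and 11.9 CPM in the Ythdc1 control (1.89 ± 0.10).

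The following genes were chosen after their values were seen. Slc7a11, the cystine transporter, had 9.23 and 11.7 CPM in the Mettl3 control, against 0.451 and 0.713 CPM in the Ythdc1 control (4.102 ± 0.29), and Trib3, a pseudokinase that restrains ATF4, had 36.5 and 33.9 CPM in the Mettl3 control, against 7.22 and 7.53 CPM in the Ythdc1 control (2.25 ± 0.13). Chac1, which degrades glutathione, had 10.4 and 10.8 CPM in the Mettl3 control, against 1.58 and 2.62 CPM in the Ythdc1 control (2.28 ± 0.23). Atf4 itself differed less, with 232 and 238 CPM in the Mettl3 control, against 159 and 168 CPM in the Ythdc1 control (0.52 ± 0.055), and the synthetase gene Asns had 562 and 564 CPM in the Mettl3 control, against 493 and 505 CPM in the Ythdc1 control (0.17 ± 0.048). Not every member followed: Ddit4, an inhibitor of mTOR signalling, had 13.8 and 12.6 CPM in the Mettl3 control, against 31.6 and 33.8 CPM in the Ythdc1 control (−1.31 ± 0.12).

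The promoters of this list were searched for the core letters of the CARE element bound by ATF4 with C/EBP partners, TGATGNAAN (NTTNCATCA on the other strand). RefSeq promoters were searched for 23 of the 26 autosomal members, with a single start per gene. A match was present in 8 of these 23 (34.8%), beside 1091 of the 27025 promoters searched (4.04%). These were Asns, Atf3, Chac1, Herpud1, Nupr1, Pck2, Slc7a11 and Trib3. A match is a description of the letters, not a bound site. The list is made of genes of a response that ATF4 drives, and the search used no read counts. These shares therefore describe the list and not the difference between the lines. The promoters of 4 of them, those with the widest gaps between the lines, are shown from RefSeq (GRCm38.p6, 250 bases before to 50 after the start, matches in capitals). They lie at chr3:50443564-50443863, minus strand for Slc7a11, chr7:126625421-126625720, minus strand for Nupr1, chr2:119350992-119351291, plus strand for Chac1 and chr2:152344011-152344310, minus strand for Trib3. Slc7a11 holds 2 matches and the others 1 each.
Slc7a11: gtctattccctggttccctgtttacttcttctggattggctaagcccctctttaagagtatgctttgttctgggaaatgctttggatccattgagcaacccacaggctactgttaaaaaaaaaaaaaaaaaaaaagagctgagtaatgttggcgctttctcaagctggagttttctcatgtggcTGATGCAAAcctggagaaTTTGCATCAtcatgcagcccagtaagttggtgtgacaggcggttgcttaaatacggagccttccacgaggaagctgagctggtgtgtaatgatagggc
Nupr1: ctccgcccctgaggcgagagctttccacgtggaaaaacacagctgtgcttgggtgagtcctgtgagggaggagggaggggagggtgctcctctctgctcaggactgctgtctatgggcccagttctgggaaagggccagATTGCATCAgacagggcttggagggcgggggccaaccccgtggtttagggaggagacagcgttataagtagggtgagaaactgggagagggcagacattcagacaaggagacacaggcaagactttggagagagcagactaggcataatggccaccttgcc
Chac1: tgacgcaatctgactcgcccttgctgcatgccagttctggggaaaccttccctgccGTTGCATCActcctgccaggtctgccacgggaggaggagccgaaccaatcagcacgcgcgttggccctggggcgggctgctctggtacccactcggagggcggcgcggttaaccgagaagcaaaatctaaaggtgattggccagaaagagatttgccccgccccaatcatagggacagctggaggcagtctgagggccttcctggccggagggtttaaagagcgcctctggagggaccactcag
Trib3: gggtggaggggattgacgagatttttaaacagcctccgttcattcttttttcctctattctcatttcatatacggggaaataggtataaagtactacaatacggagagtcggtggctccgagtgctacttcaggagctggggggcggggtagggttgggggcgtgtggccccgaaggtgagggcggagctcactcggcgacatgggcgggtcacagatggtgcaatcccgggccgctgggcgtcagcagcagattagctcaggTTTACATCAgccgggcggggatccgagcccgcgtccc

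Targets of the tumour suppressor p53 were lower, and so was the gene of p53 itself. Of 25 tested, 19 were lower (76%) and 4 higher, and the list median was −0.63. Under spike-in scaling the counts became 8 lower and 7 higher, with a median of −0.08. Trp53, on chromosome 11, had 144 and 138 CPM in the Mettl3 control, against 446 and 456 CPM in the Ythdc1 control (−1.68 ± 0.063, adjusted p = 1.06e-22). Cdkn1a, the cell cycle inhibitor p21, had 49.2 and 45.4 CPM in the Mettl3 control, against 141 and 142 CPM in the Ythdc1 control (−1.58 ± 0.070). The apoptosis gene Pmaip1 had 47.3 and 42.2 CPM in the Mettl3 control, against 137 and 132 CPM in the Ythdc1 control (−1.59 ± 0.072), and Zmat3, an RNA-binding target, had 90.3 and 89.3 CPM in the Mettl3 control, against 211 and 216 CPM in the Ythdc1 control (−1.25 ± 0.056). The 4 higher members included Gdf15, a stress cytokine chosen after its value was seen, with 19.5 and 18.5 CPM in the Mettl3 control, against 3.61 and 3.49 CPM in the Ythdc1 control (2.42 ± 0.17).

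Most called trophoblast, endoderm and neuroectoderm genes were higher in the Mettl3 control. Of 16 trophoblast genes tested, 14 were higher (87.5%) and 1 lower, at a median of 1.65. The tight junction gene Cldn4 had 302 and 281 CPM in the Mettl3 control, against 15.8 and 14.3 CPM in the Ythdc1 control (4.28 ± 0.091), and the trophoblast factor Gata2 had 18.1 and 17.1 CPM in the Mettl3 control, against 3.83 and 2.77 CPM in the Ythdc1 control (2.45 ± 0.18). The defining factor Cdx2 was lower, at 0.612 and 0.921 CPM in the Mettl3 control, against 1.24 and 1.98 CPM in the Ythdc1 control (−1.09 ± 0.40). This call was lost without the first Mettl3 control (−0.84) or the second Ythdc1 control library (−0.68). Elf5 stayed below 1 CPM in all 4 libraries. Of 20 endoderm genes, 10 were higher (50%) and 2 lower (1 lower without the second library of either line), for a list median of 0.46. These were led by basement membrane genes. The laminin gene Lama1 had 768 and 772 CPM in the Mettl3 control, against 148 and 154 CPM in the Ythdc1 control (2.35 ± 0.057). The type IV collagen genes Col4a1 and Col4a2, both on chromosome 8, were higher by 1.65 ± 0.063 and 2.04 ± 0.080. The collagen chaperone gene Serpinh1 had 162 and 166 CPM in the Mettl3 control, against 57.1 and 59.5 CPM in the Ythdc1 control (1.49 ± 0.061). Outside chromosomes 8 and 11, 7 of 16 endoderm genes were higher and 2 lower, at a median of 0.37. Mesoderm and primitive streak genes divided, with 5 of 16 higher and 7 lower (31.2% and 43.8%). The higher calls fell to 2 without the first Ythdc1 control library and to 3 without the second library of either line, and spike-in scaling gave 7 higher and 5 lower. Nodal, the signal that patterns the epiblast, had 102 and 98.6 CPM in the Mettl3 control, against 205 and 199 CPM in the Ythdc1 control (−1.01 ± 0.055), and its antagonist Lefty2 had 109.9 and 114 CPM in the Mettl3 control, against 309 and 327 CPM in the Ythdc1 control (−1.504 ± 0.054).

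Neuroectoderm genes were higher in 6 of 10 tested (60%) and lower in 2. Sox1, an early neural plate factor, had 333 and 337 reads in the Mettl3 control, against 8 and 3 in the Ythdc1 control (4.84 ± 0.31, and 4.03 without the second Ythdc1 control library), and the intermediate filament gene Nes had 92.8 and 87.95 CPM in the Mettl3 control, against 35.3 and 36.1 CPM in the Ythdc1 control (1.34 ± 0.077). Ncam1, a neural adhesion gene, had 50.5 and 48.8 CPM in the Mettl3 control, against 11.95 and 15.2 CPM in the Ythdc1 control (1.85 ± 0.10). Of 19 Hox genes tested, 15 were higher (78.9%) and 1 lower. Without the second Ythdc1 control library 6 were higher. Among the higher ones was Hoxd13 at 3.44 and 2.76 CPM in the Mettl3 control, against 1.01 and 0.713 CPM in the Ythdc1 control (1.87 ± 0.39). Clustered protocadherins, cell surface genes chosen by promoter methylation in neurons, were higher in 7 of 9 and lower in 1. Pcdhgb1 (2.27 ± 0.27) and Pcdhgb2 (2.09 ± 0.25) were among the higher ones. The lower one was Pcdhgc3, with 12.3 and 11.98 CPM in the Mettl3 control, against 27.6 and 27.98 CPM in the Ythdc1 control (−1.19 ± 0.12).

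Fibrillar collagens and other genes of fibroblasts were higher in the Mettl3 control. Fibroblasts are widely used as feeder layers under stem cells, and the labels of these samples mention none. Of 28 tested, 20 were higher (71.4%) and 2 lower, and the list median was 1.48; of the 17 without opposite-strand overlap 12 were higher and the others were not called. Col1a1 (chr11:94936224-94953042, plus strand), the main chain of type I collagen, had 103 and 99.6 CPM in the Mettl3 control, against 1.24 and 2.299 CPM in the Ythdc1 control (5.77 ± 0.12, adjusted p = 8.9e-36). Col1a2, its second chain, had 88.2 and 75.7 CPM in the Mettl3 control, against 1.804 and 1.27 CPM in the Ythdc1 control (5.77 ± 0.14). The 2 lines were far apart for both chains. Col3a1, the type III collagen gene, had 249 and 271 reads in the Mettl3 control, against 1 and 1 in the Ythdc1 control, a ratio of 124 (95% counting interval between 34.1 and 1025). The smooth muscle actin gene Acta2 had 352 and 382 reads in the Mettl3 control, against 3 and 0 in the Ythdc1 control, a ratio of 117 (95% counting interval between 39.7 and 566). Thbs1, which encodes thrombospondin, had 154 and 149 CPM in the Mettl3 control, against 3.16 and 2.54 CPM in the Ythdc1 control (5.75 ± 0.10), and Col5a2 had 73.2 and 63.5 CPM in the Mettl3 control, against 3.16 and 3.41 CPM in the Ythdc1 control (4.37 ± 0.12). Lox, a collagen cross-linking enzyme gene, had 26.6 and 25 CPM in the Mettl3 control, against 1.47 and 0.713 CPM in the Ythdc1 control (4.64 ± 0.20).

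Other fibroblast markers were split. Postn, which encodes the matrix protein periostin, had 1.84 and 0.796 CPM in the Mettl3 control, against 0.226 and 0.238 CPM in the Ythdc1 control (2.44 ± 0.61). Pdgfrb, a receptor gene for platelet-derived growth factors, had 7.58 and 8.17 CPM in the Mettl3 control, against 4.17 and 6.104 CPM in the Ythdc1 control (0.58 ± 0.19). Both were higher, but the call of Pdgfrb was lost without the first Ythdc1 control library (0.37). Pdgfra, which encodes a related receptor, had 2.03 and 2.01 CPM in the Mettl3 control, against 3.16 and 3.57 CPM in the Ythdc1 control and was lower (−0.74 ± 0.28), a call lost without the second library of the Mettl3 control (−0.74) or of the Ythdc1 control (−0.64). Mmp2 had 12.7 and 12.3 CPM in the Mettl3 control, against 12.3 and 12.5 CPM in the Ythdc1 control and was not called (0.0053), and Thy1 had 2.12 and 1.59 CPM in the Mettl3 control, against 2.93 and 2.46 CPM in the Ythdc1 control and was not called (−0.53). Dcn was at 0 and 0.168 CPM in the Mettl3 control and at 0 in both Ythdc1 control libraries, and Lum stayed below 0.1 CPM in all 4. Fibronectin, Fn1, had 2830.3 and 2886 CPM in the Mettl3 control, against 2521 and 2657 CPM in the Ythdc1 control (0.14 ± 0.043), and was not called without the first Ythdc1 control library (0.11). The 11 fibroblast markers of the cell type check summed to 196 and 198 CPM in KO1 and 536 and 530 CPM in KO2. The cKO had 14.9 and 14.98 CPM, so the higher sum was present in every library of the Mettl3 experiment. In each of these Mettl3 libraries Col1a1 and Col1a2 made up most of the sum. Whether other cells took part in it was not tested.

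Imprinted genes departed from each other locus by locus. Of 60 tested, 23 were higher (38.3%) and 17 lower (28.3%), at a median of 0.077. These shares lie near those of all autosomal genes, and without opposite-strand overlap 11 of 27 were higher and 3 lower. Spike-in scaling gave 40 higher and 9 lower. At the Dlk1-Dio3 domain, where the maternal chromosome makes noncoding RNAs and the paternal one Dlk1, all 3 large noncoding RNAs were higher. Meg3 (chr12:109541001-109571726, plus strand) had 317 and 305 CPM in the Mettl3 control, against 73.5 and 72.6 CPM in the Ythdc1 control (2.09 ± 0.058, adjusted p = 3.17e-31). Rian had 397 and 402 CPM in the Mettl3 control, against 113 and 111 CPM in the Ythdc1 control (1.83 ± 0.057), and Mirg had 91.9 and 92.2 CPM in the Mettl3 control, against 20.2 and 20.5 CPM in the Ythdc1 control (2.18 ± 0.087). Dlk1, a paternal gene of the domain, had 4.52 and 4.90 CPM in the Mettl3 control, against 1.13 and 1.35 CPM in the Ythdc1 control (1.91 ± 0.33).

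H19, the maternal noncoding RNA next to Igf2, had 15.1 and 14.5 CPM in the Mettl3 control, against 5.53 and 5.63 CPM in the Ythdc1 control (1.41 ± 0.16). Sgce had 15.2 and 15.5 CPM in the Mettl3 control, against 3.72 and 3.01 CPM in the Ythdc1 control (2.21 ± 0.18) and its neighbour Peg10 had 175 and 184 CPM in the Mettl3 control, against 119 and 126 CPM in the Ythdc1 control (0.55 ± 0.056), both read from the paternal chromosome. Mest had 130.2 and 138 CPM in the Mettl3 control, against 57.7 and 57.8 CPM in the Ythdc1 control (1.21 ± 0.065) and the growth inhibitor gene Grb10 had 44.6 and 45.9 CPM in the Mettl3 control, against 18.2 and 16.1 CPM in the Ythdc1 control (1.41 ± 0.085), although Grb10 lies on chromosome 11. Other imprinted genes were lower: the growth inhibitor gene Cdkn1c had 1.696 and 1.42 CPM in the Mettl3 control, against 3.61 and 3.88 CPM in the Ythdc1 control (−1.27 ± 0.29), and Magel2, Peg12 and the antisense RNA Airn had log2 fold changes of −2.43 ± 0.28, −1.96 ± 0.23 and −1.46 ± 0.35. Igf2r, which Airn overlaps, had 338 and 332 CPM in the Mettl3 control, against 316 and 330.3 CPM in the Ythdc1 control and was not called (0.051). Peg3 had 222 and 216 CPM in the Mettl3 control, against 199.6 and 204 CPM in the Ythdc1 control, a small difference that was called (0.12 ± 0.052) but in no fit that left out a library (between 0.11 and 0.14). Ndn (−0.20) and Phlda2 (0.093) were not called.

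**Figure D3:**
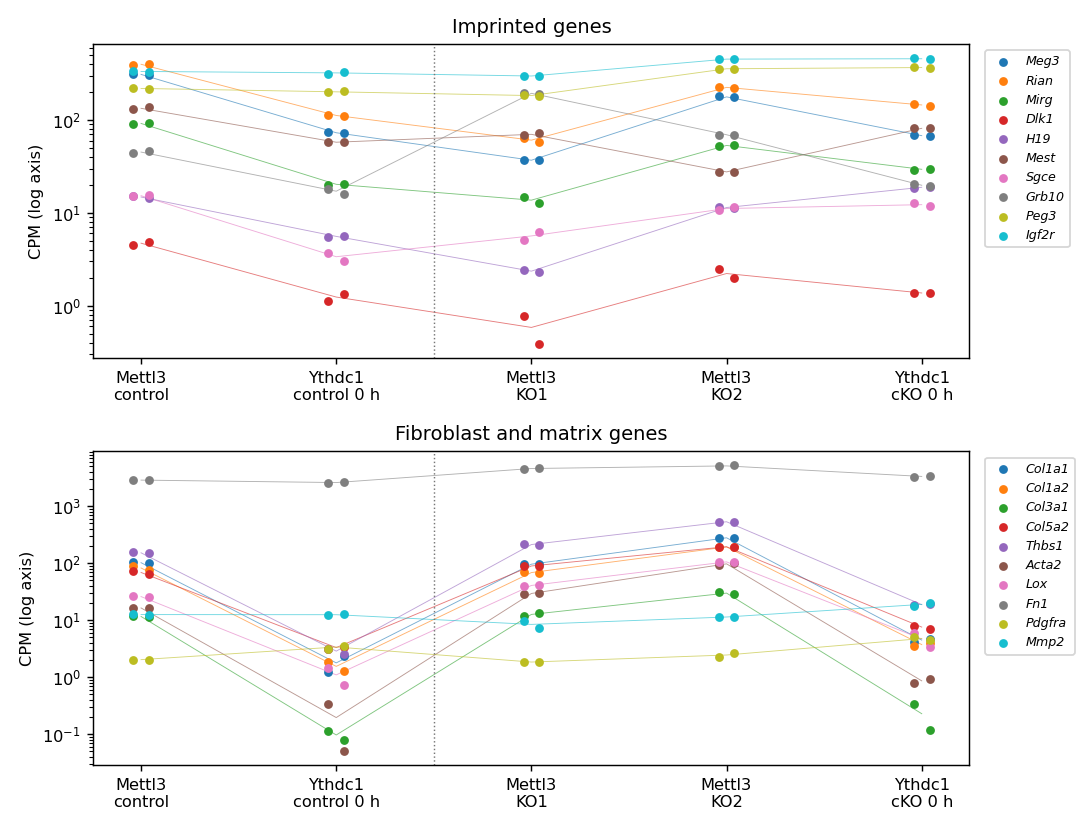
Levels of imprinted genes (top) and of fibroblast and matrix genes (bottom) in single libraries of the 2 controls and of the knockouts at 0 h, in CPM on a log axis. Points are libraries, lines join group means and a value under 0.05 CPM is drawn at 0.05. Meg3, Rian and Mirg are higher in the Mettl3 control than in the Ythdc1 control but not in KO1, whereas Col1a1, Col1a2 and Thbs1 are higher in all Mettl3 libraries.

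Among regulators of DNA methylation, 9 of 18 tested were higher (50%) and 5 lower. Beside the Dnmt3 genes above, the dioxygenase gene Tet2 had 1059 and 1083 CPM in the Mettl3 control, against 555 and 554 CPM in the Ythdc1 control (0.95 ± 0.047), and Tdg, the glycosylase that completes demethylation, had 74.8 and 72.04 CPM in the Mettl3 control, against 31.6 and 28.3 CPM in the Ythdc1 control (1.302 ± 0.077). Of 23 genes of the m6A machinery, 7 were higher and 13 lower, for a list median of −0.27. Spike-in scaling gave 16 higher and 3 lower, at a median of 0.28. Zc3h13, which holds the writer complex in the nucleus, had 362 and 354 CPM in the Mettl3 control, against 109.7 and 106 CPM in the Ythdc1 control (1.73 ± 0.057). Mettl16, a separate m6A methyltransferase, had 107 and 98.05 CPM in the Mettl3 control, against 262 and 243 CPM in the Ythdc1 control (−1.298 ± 0.057), and the cytoplasmic reader gene Ythdf1 had 66.3 and 70.3 CPM in the Mettl3 control, against 125 and 122 CPM in the Ythdc1 control (−0.85 ± 0.062). Of a list of 38 named long noncoding RNAs tested, 13 were higher (34.2%) and 17 lower (44.7%), and under spike-in scaling 20 were higher and 10 lower. All 2038 annotated long noncoding genes tested leaned the other way, with 1133 higher and 335 lower. The lean was weaker in the 811 of them without opposite-strand overlap, with 280 higher and 189 lower (median 0.24). In the fit of all genes, the 11882 genes without such overlap had 4250 higher and 3980 lower. The 811 had no larger share of higher calls than these, and a smaller share of lower calls. For the Mettl3 knockouts over the Ythdc1 cKO the median of the 811 was −0.13, beside 0.71 over all 2038. Neat1, the scaffold of paraspeckles, had 589.6 and 584 CPM in the Mettl3 control, against 221 and 216 CPM in the Ythdc1 control (1.42 ± 0.050).

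Medians of whole chromosomes set 3 of the 19 autosomes apart. Over 13887 protein-coding genes the median log2 fold change was 0.03, with 37.0% called higher and 35.8% lower. The 762 genes of chromosome 8 had a median of 0.55, with 63.6% higher and 15.2% lower. The 1207 genes of chromosome 11 had a median of −0.50, with 20.4% higher and 57.8% lower. Chromosome 6 followed with 0.31 over 685 genes, 50.5% higher and 27.9% lower. The other 16 medians lay between −0.12 and 0.12. For chromosome 8 the median was between 0.53 and 0.55 in all 4 pairings of a Mettl3 with a Ythdc1 control library, and it was 0.61 among genes without opposite-strand overlap.

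Set against each gene's mean over all 10 libraries at 0 h, on a log2(CPM + 0.5) scale, chromosome 8 stood at 0.39 and 0.37 in the Mettl3 control libraries and at −0.14 and −0.13 in the Ythdc1 control libraries. KO1 was at −0.07 in both libraries, KO2 at 0.01 and 0.00 and the cKO at −0.18 and −0.17, so the high value was present in the Mettl3 control but in neither knockout line. Chromosome 11 was at −0.20 in both Mettl3 control libraries, against 0.25 and 0.30 in the Ythdc1 control. Here the split followed the experiment: KO1 stood at −0.17 in both libraries, KO2 at −0.10 and −0.11, and the cKO at 0.17 and 0.22. On chromosome 6 the Mettl3 control (0.21 in both) was near KO1 (0.18 and 0.19), with KO2 at −0.17 and −0.13, the cKO at −0.11 and −0.10 and the Ythdc1 control at −0.10 and −0.09. Along chromosome 8 the medians of its first, middle and last genes by position were 0.59, 0.54 and 0.53, so the difference ran over the whole length. On chromosome 11 they were −0.60, −0.54 and −0.39, and on chromosome 6 they were 0.24, 0.13 and 0.52. Whether copy number differs was not tested, since the files hold RNA counts.

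**Figure D4:**
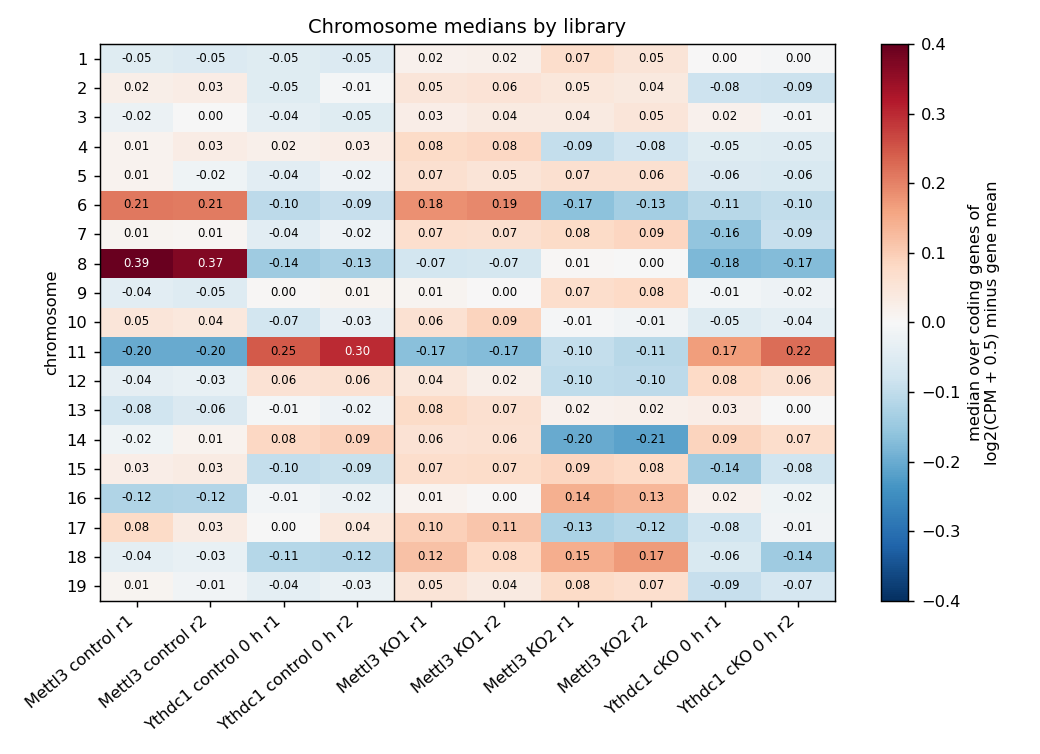
Median over protein-coding genes of each autosome (rows) in each library at 0 h (columns), as log2(CPM + 0.5) minus the gene's mean over the 10 libraries. Red is above and blue below the mean; the 2 Mettl3 and 2 Ythdc1 control libraries are left of the vertical line. Chromosome 8 is high (0.39 and 0.37) in the Mettl3 control libraries, and chromosome 11 is high (0.25 and 0.30 in the control) in Ythdc1 libraries.

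The same experiments can be compared through their knockouts, which share no library with the controls but share the experiment. The mean of KO1 and KO2 against the cKO called 7375 genes higher (38.9%) and 6221 lower (32.8%). Of genes higher in the Mettl3 control, 71.9% were also higher in the Mettl3 knockouts, which is 73.6% of the knockouts' own higher calls. For lower genes the shares were 68.4% and 67.6%. In all, 5428 genes were higher in both comparisons and 4208 lower in both, while 517 were higher in the control and lower in the knockout comparison and 666 the reverse. Genes with opposite-strand overlap are part of these counts. Among the 11882 genes without it, 2850 were higher in both, 2687 lower in both and 797 called in opposite directions. These knockouts differ in genotype as well as in experiment, so the second comparison is no replicate of the first.

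Gene lists divided into those that kept their side and those that did not. Fibroblast genes had a median of 2.09 in the knockout comparison beside 1.48 in the controls, and 2-cell-like genes −3.18 beside −1.34. For germline genes the medians were −1.33 and −0.92, for p53 targets −0.89 and −0.63, for stress response genes 0.68 and 1.06, and for Hox genes 1.68 and 1.302. WNT targets did not keep their side as a list, with a median of 0.18 in the knockout comparison (10 higher, 6 lower) beside −1.33 in the controls. Single members differed: Lef1 (−2.47), Notum (−1.94) and Tnfrsf19 (−0.91) stayed lower in the knockout comparison, while Cdx1 (1.03) was higher. Sp5, for which the Mettl3 control was lower, had 11.95 and 11.2 CPM in KO1 and 11.3 and 14.6 CPM in KO2, against 2.37 and 0.922 CPM in the cKO (2.88). Axin2 likewise had 49.05 and 46.7 CPM in KO1 and 62.9 and 63.01 CPM in KO2, against 32.2 and 35.96 CPM in the cKO (0.69). FGF-ERK targets had −0.12 beside 0.80, and protocadherins −0.046 beside 1.21.

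Single genes followed either pattern. Zfp42 had 481 and 491 CPM in KO1 and 279 and 265 CPM in KO2, against 48.2 and 43.8 CPM in the cKO, a difference of 2.98 beside 2.86 in the controls. H19 had 2.43 and 2.28 CPM in KO1 and 11.7 and 11.2 CPM in KO2, against 18.7 and 19.02 CPM in the cKO (−1.86), beside 1.41 in the controls. Meg3 had 37 and 36.9 CPM in KO1 and 180.1 and 176 CPM in KO2, against 68.98 and 66.96 CPM in the cKO (0.25), so KO1 was below and KO2 above the cKO. Col1a1 had 95.9 and 95.3 CPM in KO1 and 276 and 279.8 CPM in KO2, against 4.18 and 4.73 CPM in the cKO (5.19). Obox6, Lef1 and Nupr1 kept their direction, with −4.83, −2.47 and 3.32.

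**Figure D5:**
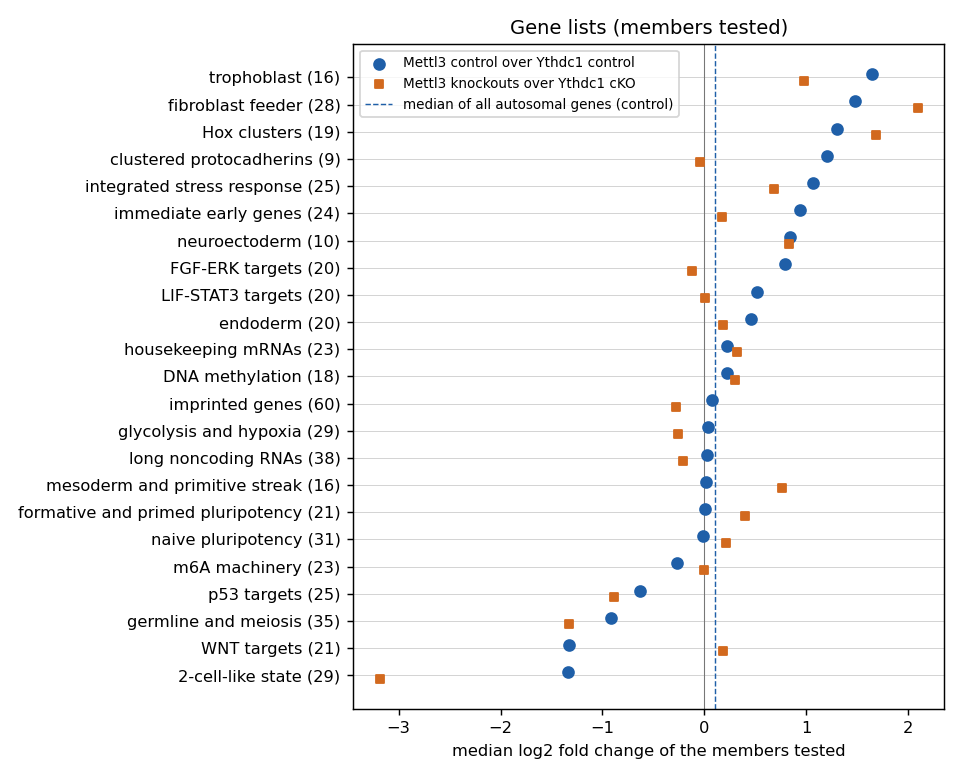
Median log2 fold change over the tested members of each gene list (number in brackets), for the Mettl3 control over the Ythdc1 control (circles) and for the Mettl3 knockouts over the Ythdc1 cKO (squares). The dashed line is the median of all autosomal genes in the control comparison, 0.11. Fibroblast and stress response lists lie right of it and 2-cell-like and germline lists left of it in both comparisons, while WNT targets lie at −1.33 in the controls and 0.18 in the knockouts.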

How the data were processed

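Nuclear RNA was measured in 18 libraries, of which the 4 control libraries at 0 h were compared and 6 knockout libraries at 0 h set beside them. The values deposited by the authors are whole-number read counts of genes, without normalization. Per the submitters' processing notes the tools were CASAVA, Trimmomatic 0.38, HISAT2 2.1.0 and HTSeq with mm10. Their options, among them the strand setting, are not given in the labels or headers. Per the labels' protocols, rRNA was removed with RiboMinus and libraries were made with the SMARTer Stranded Total RNA-Seq Kit v2. The table of all libraries and the single files held the same counts (0 cells differing).

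GENCODE M21 supplied symbols, positions and strand overlaps; 37 of the 54446 identifiers are not in it. Reads not assigned to a gene stayed out of library sizes and tests. No-feature reads were 39.8% and 40.4% of uniquely placed reads in the Mettl3 control and 50.1% and 49.7% in the Ythdc1 control. The counts of the 10 libraries at 0 h were fitted in edgeR 4.0.16 (R 4.3.3, limma 3.58.1) with 1 coefficient per group (5 residual degrees of freedom). The fit used TMM factors over nuclear genes, the default filter with a minimum count of 10 on the control libraries, robust dispersions and the quasi-likelihood test. The common biological coefficient of variation was 5.26%. The script was tested on simulated data. A fold against a group with 0 reads is a bound at 3 counts per library. Where a group had 1 to 3 reads, the ratio of counts per library size is given with its 95% exact interval, which covers counting error only. Medians over classes use the bounds.

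Genes were named by rule: Ythdc1 and Mettl3, the 12 highest and 12 lowest called genes (coding or lncRNA) with a regular symbol, a mean of at least 50 counts and no overlap between the lines, and up to 4 called members of each of 23 lists by p. In the naive, formative, 2-cell-like, imprinted and fibroblast lists any tested member could be given. Values of 2 genes that the rule names are not reported here. The members and lists were chosen with earlier results of these data known. List counts are read against all autosomal genes and carry no test of their own. Alternatives were DESeq2 1.42.0, other scalings, filters, thresholds and sets of libraries, a replicate block, thinning to equal depth and each library left out.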

Additional observations from a re-analysis of the deposited data

How the results depend on the processing

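Spike-in scaling called 11534 autosomal genes higher and 2910 lower, and under it the log2 fold changes of Mettl3 (0.28), Sox2 (0.12) and Dnmt3b (0.10) turned positive. The cause was not tested. The fit of 11882 genes without opposite-strand overlap, chosen after seeing the data, tested fewer genes and called 8164, 4266 higher and 3898 lower, with 4001 at least 2-fold and 8197 in the knockout comparison. A filter of 50 reads in 2 libraries tested 13511 genes and left 4093 called at least 2-fold. DESeq2's Wald test called 7045 higher and 5662 lower, and a test against a fold change of 1.2 called 6522 higher and 5024 lower. Thinning every library to 8723612 gene reads, the smallest total, called 6263 higher and 5452 lower of 16495 tested. Leaving out 1 control library gave between 6676 and 7071 higher and between 5424 and 5704 lower. With all 18 libraries in 1 fit the calls were 6784 higher and 6666 lower. The replicate numbers did not pair the libraries (correlation of deviations −0.0092 between the controls, and between −0.025 and 0.026 over all pairs of groups), and the fit with the replicate number as a block called 7511 higher and 6112 lower. Several list medians moved by over 1.5 times, among them the following. Without opposite-strand overlap the median of clustered protocadherins was 2.01 against 1.21. That of imprinted genes was 0.20 against 0.077, and that of housekeeping mRNAs −0.17 against 0.22. Spike-in scaling raised every list median, for example germline genes from −0.92 to −0.37 and FGF-ERK targets from 0.80 to 1.34. Without chromosomes 8 and 11 the median of WNT targets was −2.01 against −1.33. The depth of the Ythdc1 control, 8840925 and 12524328 gene reads, limits what can be said of genes at a few reads there.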

Other observations

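Glycolytic genes, which hypoxia-inducible factors and MYC are known to drive, were split between the lines. Of 29 tested, 10 were higher and 14 lower in the Mettl3 control, with a median log2 fold change of 0.037 beside 0.11 over all autosomal genes. Spike-in scaling gave 17 higher and 10 lower, at a median of 0.58. Ldha, which turns pyruvate to lactate, had 248 and 232 CPM in the Mettl3 control, against 702 and 734 CPM in the Ythdc1 control (−1.58 ± 0.052), and Tpi1, the triosephosphate isomerase gene, had 58.5 and 54.99 CPM in the Mettl3 control, against 151 and 144 CPM in the Ythdc1 control (−1.38 ± 0.061). Gapdh went the other way, with 333 and 320.4 CPM in the Mettl3 control, against 128 and 136 CPM in the Ythdc1 control (1.302 ± 0.055), although it shares reads with many pseudogenes and its counts are uncertain. Of 23 housekeeping mRNAs tested, genes used as constant references in expression work, 12 were higher and 9 lower. Among the 17 without opposite-strand overlap 7 were higher and 9 lower, and spike-in scaling gave 17 higher and 6 lower of the 23. Polr2a, the large subunit gene of RNA polymerase II, had 537 and 524 CPM in the Mettl3 control, against 1299 and 1347 CPM in the Ythdc1 control (−1.32 ± 0.047), and the transferrin receptor gene Tfrc had 627 and 652 CPM in the Mettl3 control, against 1600.5 and 1488 CPM in the Ythdc1 control (−1.27 ± 0.051).

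Fold change also followed base composition. Among coding genes without opposite-strand overlap, ordered by GC content into 5 equal groups, the median log2 fold changes were −0.07, −0.03, −0.01, 0.12 and 0.27 with rising GC. In the knockout comparison the medians of the same groups were −0.02, −0.04, −0.0014, 0.12 and 0.33. By exonic length the 5 groups lay between 0.02 and 0.07 in the controls, and in the knockout comparison their medians were 0.23, 0.17, 0.07, −0.04 and −0.006 with rising length. The mitochondrial share of gene reads was 0.958% and 1.09% in the Mettl3 control libraries, against 2.70% and 2.32% in the Ythdc1 control libraries. Spike-in reads, as unscaled CPM of gene reads, were 547 and 562 in the Mettl3 control libraries, against 795 and 772 in the Ythdc1 control libraries.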
